A study of Mus musculus with 4 samples.

Results

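Autophagy genes encode the proteins that wrap cytoplasm in a double membrane, the autophagosome, and deliver it to the lysosome. The 45 genes taken here are a curated list of this machinery and of its cargo receptors, chosen with earlier results of these data known. Of them, 44 were measured among the 19938 named genes on the arrays. The cargo receptor Optn was not analysed here. By step, the measured genes were 5 of the initiation kinase complex, 6 of the lipid kinase complexes, 7 of lipid supply to the growing membrane, 15 of the conjugation systems, 4 cargo receptors and 7 of fusion with the lysosome.

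RNA came from 4 samples of 1 stable clone (p19) of NIH3T3 cells, an established mouse fibroblast line, which carried the integrated plasmids pBI-EGFP-FLAG-mCtcfl and pTA-N. In this Tet-Off system doxycycline represses the transgene: the 2 control samples received it at 2 µg/ml, and the 2 Ctcfl samples were kept for 48 h without it. Ctcfl encodes CTCFL (BORIS), a germ-line paralog of the DNA-binding protein CTCF, so the comparison asks what its expression does to autophagy transcripts in fibroblasts. Drug withdrawal and transgene induction coincided in every sample and cannot be told apart.

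Autophagy begins when the ULK kinase complex is freed from inhibition by mTORC1, a nutrient-sensing kinase complex. A lipid kinase built on Becn1 and Pik3c3 then marks the forming membrane, ATG2 proteins and ATG9A feed it with lipid, and a ubiquitin-like conjugation system attaches proteins of the ATG8 family (the LC3 and GABARAP proteins) to it. Cargo receptors bind these ATG8 proteins, and tethers and SNARE proteins fuse the closed autophagosome with the lysosome. Much of this control acts on proteins, and the transcription factors TFEB, TFE3 and those of the FOXO family also set the level of many of the transcripts.

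All values below are RMA expression values on the log2 scale, and a difference is the mean of the Ctcfl arrays minus that of the control arrays. The median probe set lay between 5.20 and 5.24 on each array. Ctcfl itself had values of 7.77 and 7.71 in the control arrays and 10.37 and 10.35 in the Ctcfl arrays. The 8 fibroblast markers lay between 7.48 and 12.18 on all arrays, against 4.14 to 5.49 for 5 epithelial, 3.82 to 6.39 for 5 leukocyte and 3.91 to 4.45 for 4 endothelial markers. None of these 22 markers passed the test. Of the fibroblast markers 7 of 8 had lower values in the Ctcfl arrays, against 48.6% of all genes. Both Ctcfl arrays lay below both control arrays for 6 of the 8 (75%), where 20.6% of all genes did so. The median of the 8 was -0.13, led by Pdgfrb (-0.56) and Col3a1 (-0.38), and their part in the differences below was not tested. Since no label names the replicates as separate cultures, the spread behind each p-value is that of these arrays alone and could be technical. In bulk RNA, fewer cells that express a gene and less of its RNA per cell cannot be told apart.

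No autophagy gene passed the test. By limma with Benjamini-Hochberg adjustment over all genes, 0 of 44 members had an adjusted p under 0.05, against 9 of all genes (0.0451%), and the lowest adjusted p of a member was 0.353. At an unadjusted p under 0.05 there were 6 members (13.6%), 5 higher and 1 lower, against 10.7% of all genes, so in this fit the share lay near that of all genes. That count was 2 (4.55%, against 6.66% of all genes) with all probe sets in the fit and 8 (18.2%, against 11.2%) with quantile normalisation. With 1 array left out, the members' median difference ran from 0.045 to 0.085, and that of all genes from -0.01 to 0.01. With variances that follow signal intensity and are robust to outlying genes, limma called 2 members (4.55%), Atg13 and Atg7 (both adjusted p = 0.0484), against 479 of all genes (2.4%). In that fit 15 members (34.1%) had an unadjusted p under 0.05 against 13.5% of all genes. The differences were small. They ran from -0.24 for Gabarapl1 to 0.32 for Atg13. Only Atg13 and Atg7 differed by at least 1.2-fold (4.55% of the members), against 8.81% of all genes. For each of the 44 members the 95% confidence interval of the difference, not adjusted for the number of genes, lay within a 1.5-fold change in either direction, the highest upper bound being 0.54 and the lowest lower bound -0.45.

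The signs leaned to higher values in the Ctcfl arrays. Of the 44 members 30 had higher and 14 had lower values, against 49.9% higher and 48.6% lower among all genes, and the members' median difference was 0.09 against 0.00. Both Ctcfl arrays lay above both control arrays for 20 members (45.5%), where 20.6% of all genes did so, and below them for 7 (15.9%), where 20.6% of all genes did so. With the dimmest 33.3% of genes left out, in which no member lay, the shares among the remaining genes were 22.7% above and 23.4% below. No test of the list was made, so these counts only describe the list. The median deviation of the members from the control mean was 0.09 and 0.08 in the Ctcfl arrays against 0.02 and -0.02 in the control arrays. Without control replicate 2 the members' median difference was 0.045, against 0.01 over all genes.

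**Figure D1:**
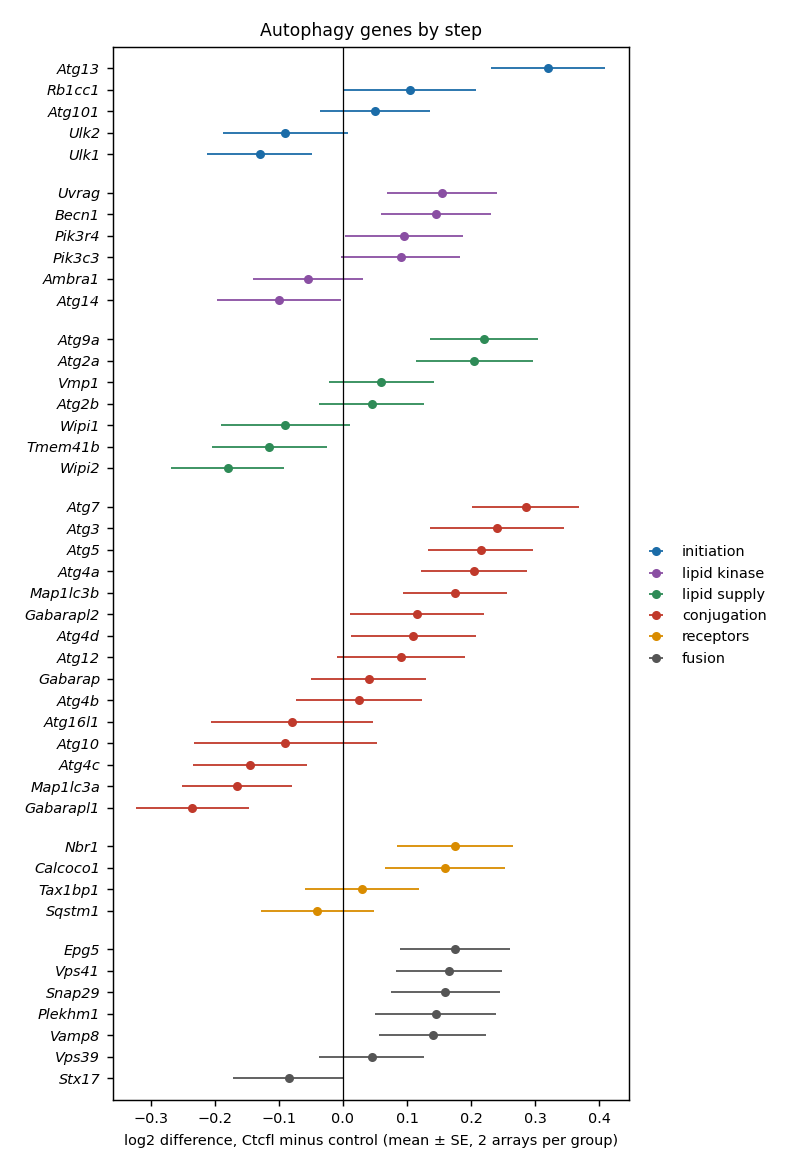
Log2 difference of each of the 44 measured autophagy genes (Ctcfl minus control, 2 arrays per group) with its standard error from limma, ordered by size within each step and coloured by step. The points run from -0.24 (Gabarapl1) to 0.32 (Atg13), and 6 of 7 fusion genes lie above 0.

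The initiation complex joins the kinases ULK1 and ULK2 to the scaffold subunits ATG13, FIP200 (Rb1cc1) and ATG101. Atg13, whose product links the kinase to FIP200, had values of 7.48 and 7.56 in the control arrays and 7.79 and 7.89 in the Ctcfl arrays. This was the largest difference of any member, 0.32 (SE 0.09, 1.25-fold, unadjusted p = 0.0110, adjusted p = 0.353 by limma), and the groups did not overlap. Rb1cc1 had 8.38 and 8.24 in the control arrays against 8.33 and 8.50 in the Ctcfl arrays, a difference of 0.11 (SE 0.10), with overlapping groups. Atg101 had 0.05. Ulk1 had -0.13 (SE 0.08), with both Ctcfl arrays (6.41 and 6.45) below both control arrays (both 6.56). Its paralog Ulk2 had -0.09, which rested on control replicate 1 (7.54), since the other 3 arrays lay between 7.35 and 7.36. The kinase and scaffold genes thus had differences of opposite sign, and none of the 5 passed.

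In the lipid kinase step the differences ran from -0.10 to 0.16, and none of its 6 genes had an unadjusted p under 0.05. Uvrag, which takes the place of ATG14 in the form of the complex that acts on endosomes and late autophagosomes, had 9.04 in both control arrays and 9.15 and 9.24 in the Ctcfl arrays (0.16, SE 0.09, adjusted p = 0.558). Becn1, the scaffold shared by both forms, had 8.85 and 8.93 in the control arrays and 9.06 and 9.01 in the Ctcfl arrays (0.15, SE 0.09). In both genes the groups did not overlap. The catalytic subunit gene Pik3c3 (0.09) and the regulatory subunit gene Pik3r4 (0.10) had smaller differences with overlapping groups. Atg14, the subunit that directs the complex to forming autophagosomes, had -0.10, and Ambra1, an activator that binds BECN1, had -0.06, and the groups overlapped in both.

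Among the genes of lipid supply, Atg9a, which encodes a lipid scramblase carried on small vesicles, had values of 7.14 and 7.19 in the control arrays and 7.41 and 7.36 in the Ctcfl arrays. Its difference was 0.22 (SE 0.08, unadjusted p = 0.0385, adjusted p = 0.442 by limma), with no overlap. Atg2a, one of the lipid transfer proteins that work with ATG9A, had 6.90 and 6.93 in the control arrays against 7.05 and 7.19 in the Ctcfl arrays (0.21, SE 0.09). Its paralog Atg2b had 0.05 on 1 probe set and 0.04 on another. The WIPI proteins read the lipid mark made by the kinase. Wipi2, which recruits the conjugation machinery, had 8.50 and 8.40 in the control arrays and 8.30 and 8.24 in the Ctcfl arrays, a difference of -0.18 (SE 0.09) without overlap, and Wipi1 had -0.09 with overlap. Of the scramblases of the endoplasmic reticulum, Vmp1 had 9.41 and 9.44 in the control arrays and 9.48 and 9.49 in the Ctcfl arrays (0.06). The other, Tmem41b, had 9.57 and 9.48 in the control arrays and 9.36 and 9.46 in the Ctcfl arrays (-0.12, SE 0.09), and its dimmer probe set had -0.01.

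Of the 15 conjugation genes, the largest group, 4 (26.7%) had an unadjusted p under 0.05, against 10.7% of all genes and 1 of 5 initiation genes. The system runs in order: ATG7 is the E1-like enzyme that activates both ubiquitin-like proteins, ATG3 and ATG10 are the E2-like enzymes, and the conjugate of ATG12 with ATG5, held by ATG16L1, acts as the E3-like ligase. Atg7 had values of 8.02 and 7.97 in the control arrays and 8.27 and 8.29 in the Ctcfl arrays. Its difference of 0.29 (SE 0.08, 1.22-fold, unadjusted p = 0.0132, adjusted p = 0.366 by limma) was the next largest after that of Atg13. Atg5 had 7.55 and 7.54 in the control arrays against 7.77 and 7.75 in the Ctcfl arrays, a difference of 0.22 (SE 0.08, unadjusted p = 0.0380, adjusted p = 0.442). Atg3 had 7.84 and 7.81 in the control arrays and 7.95 and 8.18 in the Ctcfl arrays (0.24, SE 0.10, unadjusted p = 0.0605), and its difference was 0.13 without Ctcfl replicate 2 and 0.36 without Ctcfl replicate 1. In these 3 genes the arrays of the groups did not overlap. The groups overlapped for the other ligase genes, Atg12 (0.09) and Atg16l1 (-0.08), and for Atg10 (-0.09). In Atg16l1 the Ctcfl arrays lay on both sides of the control value of 7.91, at 8.0 and 7.66.

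Promoter sequence was set beside these values. RefSeq (GRCm38.p6) gave 42 starts for 36 of the 44 members, and the 250 bases before each start were searched on both strands for 5 motifs: the palindromic E-box CACGTG, the longer TFEB and TFE3 motif TCACGTGA that contains it, the ATF4 motif TGATGNAAN, the FOXO motif GTAAACA and AGGGGGCGC from the core of the CTCF motif, which CTCFL also binds. The E-box stood before 3 members, Atg3, Atg5 and Atg7 (8.33% of member genes), a share near the 6.86% of all genes with a listed start. The longer motif stood before 1 member, Atg3 (2.78%, against 0.907% of all genes). The ATF4, FOXO and CTCF motifs stood before 0 members, against 3.89%, 3.54% and 1.27% of all genes. A match is only a match of letters, and whether a factor binds there was not measured. The bases before the start of Atg3 (chr16:45158579-45158828, plus strand), Atg5 (chr10:44268089-44268338, plus strand), Atg7 (chr6:114670846-114671095, plus strand), Atg13 (chr2:91710593-91710842, minus strand) and Gabarapl1 (chr6:129532942-129533191, plus strand) are shown, the first 3 for their matches, Atg13 as the member with the largest higher value and Gabarapl1 as that with the largest lower value. The start used for Atg7 lies inside the annotated span of the gene, and the last 17 bases shown for Atg5 and the last 5 for Atg13 lie within the spans of those genes. Capitals mark matches, and each sequence runs 5′ to 3′ towards the start of transcription.
Atg3: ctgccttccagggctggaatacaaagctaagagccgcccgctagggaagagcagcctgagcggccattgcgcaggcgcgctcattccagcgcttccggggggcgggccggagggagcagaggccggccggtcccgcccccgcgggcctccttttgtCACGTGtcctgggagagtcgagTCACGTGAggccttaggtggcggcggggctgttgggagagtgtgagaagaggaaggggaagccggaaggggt
Atg5: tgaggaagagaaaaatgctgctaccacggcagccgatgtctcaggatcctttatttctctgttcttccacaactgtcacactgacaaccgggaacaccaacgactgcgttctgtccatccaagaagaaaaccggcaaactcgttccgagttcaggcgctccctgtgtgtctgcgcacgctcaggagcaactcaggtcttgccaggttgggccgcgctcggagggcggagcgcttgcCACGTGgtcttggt
Atg7: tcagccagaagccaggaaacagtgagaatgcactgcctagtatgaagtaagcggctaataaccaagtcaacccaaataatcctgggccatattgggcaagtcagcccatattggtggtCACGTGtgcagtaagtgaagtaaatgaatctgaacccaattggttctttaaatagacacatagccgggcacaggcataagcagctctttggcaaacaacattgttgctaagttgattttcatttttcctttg
Atg13: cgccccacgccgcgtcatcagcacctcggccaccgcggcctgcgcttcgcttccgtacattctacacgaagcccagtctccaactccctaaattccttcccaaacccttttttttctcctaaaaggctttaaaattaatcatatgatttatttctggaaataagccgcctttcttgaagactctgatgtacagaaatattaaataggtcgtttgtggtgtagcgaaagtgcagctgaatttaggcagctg
Gabarapl1: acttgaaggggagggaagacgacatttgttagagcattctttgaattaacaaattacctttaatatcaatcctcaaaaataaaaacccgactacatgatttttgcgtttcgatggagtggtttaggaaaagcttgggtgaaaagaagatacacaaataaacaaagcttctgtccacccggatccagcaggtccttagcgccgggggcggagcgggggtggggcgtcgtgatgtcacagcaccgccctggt
Counted from the start, where -1 is the last base before it, the E-boxes of Atg3 begin at -94 and -71, and the nearer one lies within the longer motif. The E-box of Atg5 begins at -14 and that of Atg7 at -132, and both lie within the annotated spans of those genes. The promoters of Atg13 and Gabarapl1 held none of the 5 motifs, nor did those of Atg4a and Atg9a, the other members with an unadjusted p under 0.05.

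The ATG4 proteases trim ATG8 proteins before conjugation and release them again from membranes. Atg4a had 7.65 and 7.69 in the control arrays and 7.88 and 7.87 in the Ctcfl arrays (0.21, SE 0.08, unadjusted p = 0.0461, adjusted p = 0.460 by limma), without overlap, and its dimmer probe set had 0.14. In the limma fit of all probe sets the unadjusted p was 0.0666 for the brighter set and 0.162 for the dimmer. Which of them lies at the Atg4a gene was not checked. The other 3 proteases had differences of 0.03 (Atg4b, the most active of the family on LC3), 0.11 (Atg4d) and -0.15 (Atg4c), and differences between the genes were not tested. Of these 3, only Atg4c had groups that did not overlap, at 6.94 and 6.83 in the control arrays and 6.71 and 6.77 in the Ctcfl arrays.

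The ATG8 family held differences of both signs. Gabarapl1 had 8.15 and 8.04 in the control arrays and 7.85 and 7.87 in the Ctcfl arrays, the largest lower value of any member, a difference of -0.24 (SE 0.09, unadjusted p = 0.0352, adjusted p = 0.439 by limma). Map1lc3a, which encodes LC3A, had 7.19 and 7.21 in the control arrays and 7.08 and 6.99 in the Ctcfl arrays (-0.17, SE 0.09). Both genes were lower without overlap. Map1lc3b, which encodes LC3B, the usual marker protein of autophagosomes, had 9.82 and 9.83 in the control arrays and 10 in both Ctcfl arrays. Its difference was 0.18 (SE 0.08, adjusted p = 0.506), and its other probe set gave 0.24, with 9.66 in both control arrays against 9.89 and 9.90. Gabarap had 10.96 and 10.93 in the control arrays against 10.92 and 11.05 in the Ctcfl arrays (0.04), and Gabarapl2 had 0.12, which came from Ctcfl replicate 2 (9.56) since the other 3 arrays lay between 9.32 and 9.34. The dimmer probe set of Gabarapl2 had 0.10, at a mean value of 4.96, below the median probe set of each array. Of the 5 family members 1 was higher and 2 were lower without overlap, as were 20.6% of all genes in each direction, and none passed the test.

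**Figure D2:**
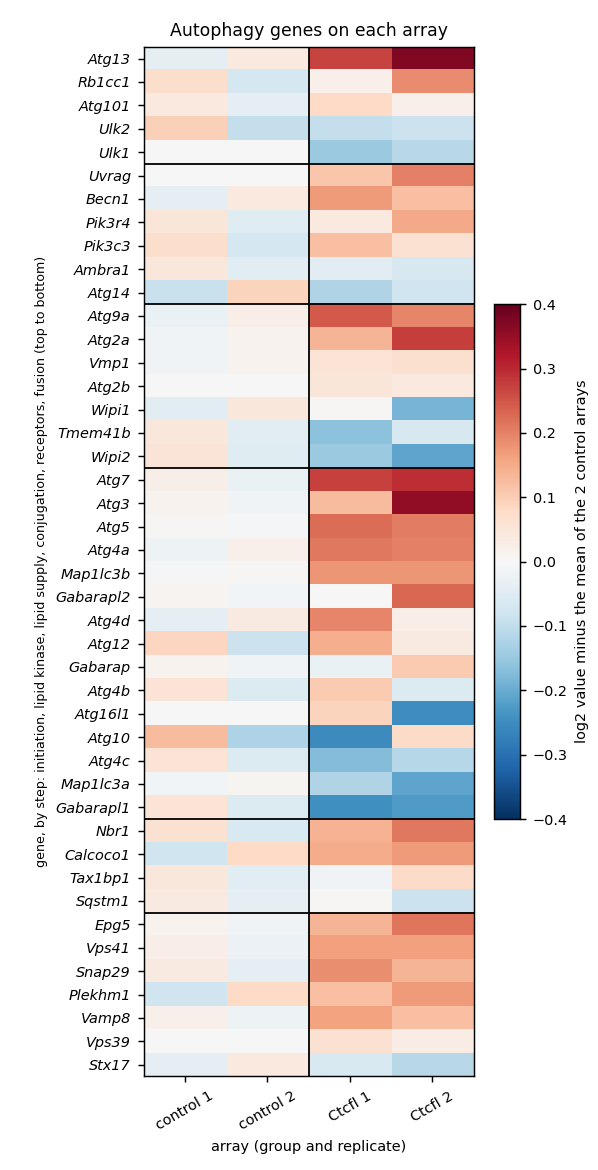
Log2 value of each measured autophagy gene on each of the 4 arrays, minus the mean of the 2 control arrays of that gene (red higher, blue lower), with lines between the steps and between the groups. Both Ctcfl columns are red for 20 genes that lay above both controls, such as Atg13 and Atg7, and blue for 7 that lay below both, such as Gabarapl1 and Wipi2.

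The cargo receptors bind ubiquitin or other tags on cargo and hold it to ATG8 proteins. Sqstm1, which encodes p62, had 10.93 and 10.86 in the control arrays and 10.90 and 10.81 in the Ctcfl arrays. The groups overlapped, and the difference of -0.04 (SE 0.09) had a 95% confidence interval from -0.25 to 0.17. Nbr1, a receptor related to p62, had 9.0 and 8.88 in the control arrays and 9.08 and 9.15 in the Ctcfl arrays (0.18, SE 0.09, adjusted p = 0.537). Calcoco1, a receptor for the endoplasmic reticulum and Golgi apparatus, had 7.57 and 7.73 against 7.80 and 7.82 (0.16, SE 0.09), and Tax1bp1 had 0.03. Nbr1 and Calcoco1 were higher without overlap, and no receptor gene had an unadjusted p under 0.05.

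In the fusion step the differences were small, with a median of 0.15, and none of the 7 genes had an unadjusted p under 0.05 (lowest 0.0840). Both Ctcfl arrays lay above both control arrays in 6 of them and below in 1, where 20.6% of all genes lay each way. Epg5, a tether between autophagosomes and lysosomes, had 7.53 and 7.50 in the control arrays and 7.65 and 7.73 in the Ctcfl arrays (0.18, SE 0.09, adjusted p = 0.517). Vps41, a subunit of the HOPS tethering complex, had 9.35 and 9.30 in the control arrays and 9.49 in both Ctcfl arrays (0.17, SE 0.08), while Vps39, another subunit, had 0.05. Plekhm1, an adaptor that joins RAB7, HOPS and ATG8 proteins, had 0.15. Of the SNARE genes, Snap29 had 6.97 and 6.90 in the control arrays and 7.12 and 7.07 in the Ctcfl arrays (0.16, SE 0.09), and Vamp8, the lysosomal partner, had 8.46 and 8.42 against 8.60 and 8.56 (0.14, SE 0.08). Stx17, the SNARE of the autophagosome, was the gene with lower values, 8.24 and 8.32 in the control arrays and 8.22 and 8.17 in the Ctcfl arrays (-0.09, SE 0.09). The 3 proteins that form 1 SNARE bundle thus had transcripts with differences of both signs.

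**Figure D3:**
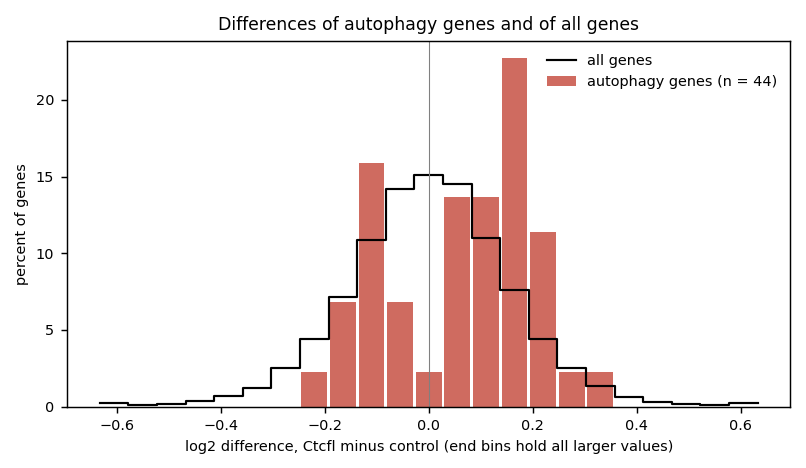
Distribution of the log2 differences (Ctcfl minus control) in bins of equal width, as percent of the 44 autophagy genes (bars) and of all 19938 genes (line). The autophagy genes lie between -0.24 and 0.32, 30 of them above 0.

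Further genes of the pathway came from 4 other lists. Among 18 other core and membrane genes, 15 had higher values, against 49.9% of all genes, and 11 did so without overlap, against 20.6%. The median was 0.08, and 4 (22.2%) had an unadjusted p under 0.05, all higher, against 10.7% of all genes. These were the SNARE genes Vti1b (0.32, SE 0.11) and Vamp7 (0.31, SE 0.11) and the HOPS core subunits Vps11 (0.25, SE 0.09) and Vps18 (0.24, SE 0.09), with adjusted p-values of 0.431 to 0.438 by limma. Vps11 had 8.82 and 8.80 in the control arrays against 9.11 and 9.0 in the Ctcfl arrays, and Vps18 had 7.18 in both control arrays against 7.48 and 7.36. Grouped after their values were seen, all 6 HOPS subunit genes (these, Vps16, Vps33a, Vps39 and Vps41) had higher values, 5 of them without overlap, with a median of 0.16, and 20.6% of all genes were higher without overlap. Rab7, the lysosomal GTPase that HOPS and Plekhm1 bind, had -0.06 with overlapping groups.

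Among receptors that mark whole organelles, the largest differences were those of Ccpg1 and Retreg1, both of the endoplasmic reticulum. Ccpg1 had 6.91 and 6.90 in the control arrays and 7.23 and 7.30 in the Ctcfl arrays (0.36, SE 0.08, unadjusted p = 0.00479, adjusted p = 0.298 by limma). Retreg1, also called FAM134B, had 7.12 and 6.94 against 7.40 and 7.38 (0.36, SE 0.10, adjusted p = 0.348). The other receptors of the endoplasmic reticulum had 0.07 (Rtn3), 0.01 (Sec62) and -0.08 (Tex264). The mitophagy receptors Bnip3 (-0.03), Bnip3l (0.03) and Fundc1 (-0.02) had overlapping groups, while Fkbp8 (0.17) and Bcl2l13 (0.09) were higher without overlap. The inner mitochondrial membrane receptor Phb2 had -0.17 (SE 0.08), with both Ctcfl arrays below both controls. None of the 14 measured genes of this list passed. The 2 named first were those with an unadjusted p under 0.05 by limma (14.3%, near the 10.7% of all genes).

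The transcription factors of the pathway differed in sign within 1 family. Tfeb had 5.80 and 5.77 in the control arrays and 6.04 and 6.08 in the Ctcfl arrays (0.28, SE 0.08, unadjusted p = 0.0152), while Tfe3 had 8.01 and 8.11 against 7.75 and 7.71 (-0.33, SE 0.09, unadjusted p = 0.00854) and Mitf had 5.50 and 5.57 against 5.38 and 5.14 (-0.28, SE 0.11, unadjusted p = 0.0426). The groups did not overlap in any of these 3, and their adjusted p-values ran from 0.342 to 0.452 by limma. A dimmer probe set of Mitf, at a mean value of 2.74, had -0.15. In the limma fit of all probe sets the unadjusted p for Mitf was 0.0752 for the brighter set and 0.154 for the dimmer. Over the list, 8 of 11 genes had lower values, against 48.6% of all genes, and 6 did so without overlap, against 20.6%. Atf4 and Ddit3, factors of the integrated stress response that can act on autophagy genes, had -0.19 and -0.21 (SE 0.09 each) and did not pass. Foxo1 had -0.13, Foxo3 -0.02 and Foxo4 0.18.

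Of 18 genes that control mTORC1 and AMPK, 10 had higher and 8 had lower values, with a median of 0.01. Only Sesn3 and Tsc2 (11.1%) had an unadjusted p under 0.05 by limma, a share near the 10.7% of all genes. Sesn3, a sestrin that restrains mTORC1, had 6.57 and 6.67 in the control arrays and 6.89 and 7.11 in the Ctcfl arrays (0.38, SE 0.11, unadjusted p = 0.0112, adjusted p = 0.354 by limma). Its paralogs had 0.01 (Sesn1) and -0.21 (Sesn2, SE 0.10). Tsc2, an inhibitor of RHEB, had 8.25 and 8.34 against 8.46 and 8.62 (0.25, SE 0.10, adjusted p = 0.454), and its partner Tsc1 had -0.11. The kinase genes Mtor (-0.11) and Prkaa1 (0.13, the catalytic AMPK subunit) did not pass. No gene of these 4 lists passed the test.

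**Figure D4:**
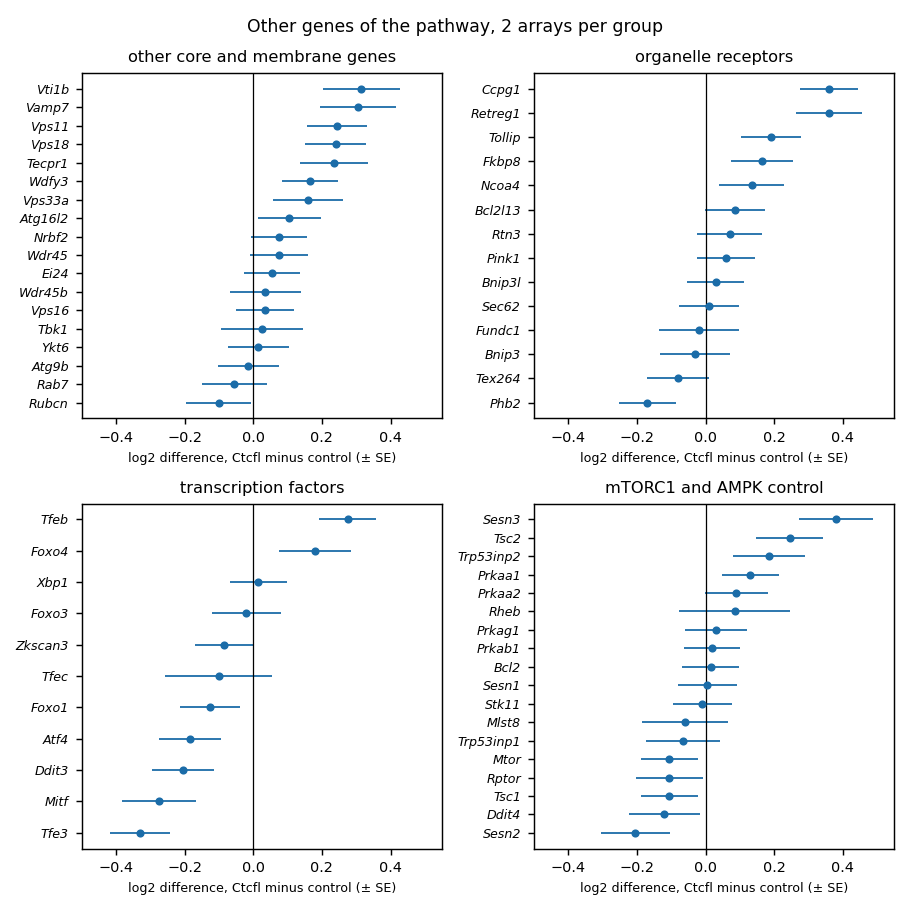
Log2 difference (Ctcfl minus control) with its standard error for the measured genes of 4 further lists of the pathway, ordered by size within each list. Vti1b, Vamp7, Vps11 and Vps18 lead the core and membrane genes at 0.24 to 0.32, Ccpg1 and Retreg1 the organelle receptors at 0.36, and Tfeb (0.28) and Tfe3 (-0.33) stand at opposite ends of the transcription factors.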

How the data were processed

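Each of the 4 samples was hybridised to an Affymetrix array. Per the labels, the deposited log2 values are RMA values the authors made with Expression Console, which corrects background, normalises arrays together and summarises each probe set on the log2 scale, so a change in total RNA per cell does not show. The version was not given in the sources used here. Of 35511 probe sets with values, 21789 had 1 gene symbol in the platform annotation of 2016, 1621 had several and 12101 are unnamed here. Symbols were checked against RefSeq (GRCm38.p6, 0 changed), and the brightest probe set stood for a gene (5 members had more than 1). Whether that probe set lies at the gene's own position in the genome was not checked.

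Differences were tested over all 19938 genes in R 4.3.3 by the moderated statistics of limma 3.58.1 (lmFit, then eBayes; two-sided, Benjamini-Hochberg adjustment, threshold 0.05), which was also tested on simulated data. The members and lists were chosen with earlier results of these data known. All measured members are named. Values on every array are given for members with an unadjusted p under 0.05 and for the brightest and most different member of each step; further members and Atg3's promoter were added after their values were seen. From the other lists, genes with an unadjusted p under 0.05 and others chosen after their values were seen are named. Alternatives were quantile normalisation, median centring, a filter on the dimmest 33.3%, the mean of probe sets, all probe sets in 1 fit, robust variances that follow an intensity trend (with statmod 1.5.0), the replicate number as a block, ordinary t statistics and each array left out. Plots came from matplotlib 3.10.9 (Python 3.11.15).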

Additional observations from a re-analysis of the deposited data

How the results depend on the processing

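The count of members past the threshold stayed at 0 in each alternative except the intensity trend with robust variances, which called 2, Atg13 and Atg7 (both adjusted p = 0.0484), among 479 of all genes. Over all genes limma called 31 with median centring and 20 without the dimmest 33.3% of genes. It called 0 with a replicate block (1468 at an unadjusted p under 0.05) and with all probe sets in the fit (1327). Ordinary t statistics called 0 of 19924 genes (1940 unadjusted), with 14 genes that had no spread left out. Members at an unadjusted p under 0.05 numbered 3 (6.82%, against 10.3% of all genes) with median centring, 15 (34.1%, against 13.5%) with the trend, 2 with all probe sets, 10 with ordinary t statistics, 2 with the replicate block and 1 to 5 with an array left out, where the lone array of a group is taken to vary like the other group. The share of members was 4.55% against 6.66% of all genes with all probe sets, and 4.55% against 7.36% with the replicate block. It was 22.7% against 9.74% with ordinary t statistics, and 18.2% (8 members) against 11.2% with quantile normalisation. Without the dimmest 33.3% of genes it was 20.5% (9 members) against 15.4% of the remaining genes. The members' share thus lay below that of all genes in some fits and above it in others. Same-numbered arrays deviated with a correlation of -0.102 across genes. With 2 arrays per group this value cannot tell whether the numbers pair them, and no label says so. A crossed block, added after seeing the data, gave 0 calls by limma (2105 unadjusted). The median difference of the members was 0.07 with median centring, against -0.02 over all genes. With an array left out it ran from 0.045 (without control replicate 2, against 0.01 over all genes) to 0.085 (without Ctcfl replicate 2, against 0.005).

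The dim-gene filter, the intensity trend, the replicate block, ordinary t statistics and the fit of all probe sets leave a difference unchanged. No sign could change there, and the mean of probe sets can alter only members with more than 1 probe set. Over 528 member values under alternatives, these included, 514 kept their sign and side of the threshold. Of the others 11 changed sign and 1 (Gabarapl2) came to 0, all 12 with an array left out. Their ranges were -0.185 to 0.005 for Ulk2 and for Wipi1, -0.055 to 0.105 for Atg4b, -0.255 to 0.075 for Atg10, -0.25 to 0.09 for Atg16l1, -0.025 to 0.105 for Gabarap, 0 to 0.23 for Gabarapl2, -0.085 to 0.005 for Sqstm1 and -0.015 to 0.075 for Tax1bp1. The cause was not tested. The number of arrays limits the precision.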
